A study of Homo sapiens with 2 samples.

Results

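The nuclear receptor genes are a list of 43 human genes, chosen by name, out of 19881 protein-coding genes placed on chromosomes 1 to 22, X and Y of GRCh38. The list includes NR2F1, a gene that the study linked to OTX2. No measured value entered the choice of genes, but the choice was made with earlier results of these data known. Nuclear receptors are transcription factors that join a DNA-binding domain to a pocket for small lipophilic ligands. Thyroid hormone, retinoic acid, steroids, bile acids, oxysterols and vitamin D act through members of the family, while orphan receptors such as NR2F1, NR2E1 and NR6A1 have no established hormone. Many bind DNA as heterodimers with a retinoid X receptor, and several, among them THRA, THRB, RORA and NR2F1, are known for roles in the developing brain and cerebellum.

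OTX2 is a homeodomain transcription factor of the developing brain and retina and is amplified or highly expressed in many medulloblastomas. OTX2-bound DNA was measured by chromatin immunoprecipitation and sequencing (ChIP-Seq) in D283, an established medulloblastoma cell line, grown as tumorspheres that express OTX2. The study calls these tumorspheres OTX2-high, a term it also uses for its scramble control. Its ChIP-Seq methods state no treatment of them. There was 1 library made with an antibody against OTX2 and 1 input library labelled as having no antibody, both of the same line. No value therefore has a replicate error, no genotype or treatment was compared, and differences between genes are given without a test. The ChIP library held 61259377 fragments after duplicate removal and the input library 22521186, and the authors called 137412 peaks of the first over the second. For each peak the pileup is the fragment coverage at its highest point, the summit, scaled by the peak caller so that 1 fragment adds 0.735. Fold enrichment is that pileup over the local input, with 1 added to each. Intervals on fragment numbers are Poisson 95% intervals and cover counting error only. Expression was not measured in these files, so a peak is a record of recovered DNA and not of a gene's activity.

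Peaks of OTX2 lay near the transcription start site (TSS) of most nuclear receptor genes, at moderate height. In the window reaching 5 kb before and 2 kb after the 5′ end of the gene record, 29 of 43 (67.4%) had at least 1 peak, beside 57.2% of all protein-coding genes. With 2 or more peaks in the window there were 16 of 43 (37.2%), beside 23.5% of all genes. The median of the highest pileup was 52.94 (72 fragments) over the 29 receptor genes, and 39.7 (54 fragments) over the 11338 other protein-coding genes with a peak. That measure takes the highest of several peaks where a gene has more than 1. Over every window peak singly the medians were 31.6 (43 fragments) for the 54 receptor peaks and 33.1 (45 fragments) for all protein-coding genes. None of the 43 had a TSS peak among the tallest 5% of all peaks (pileup above 161.02), which 1.49% of protein-coding genes had, so a count of 0 among 43 is near the background. In this window receptor genes had TSS peaks somewhat more often than genes in general and more often several, while the single peaks were not taller in the median. By record length, the higher share lay in the 8 receptor genes under 20 kb (100% beside 49.3% of other genes). It was 64.7% beside 62.3% from 20 to 100 kb and 55.6% beside 63.8% over 100 kb. Within 1 kb of the TSS the excess over other genes was 1.92 percentage points.

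**Figure D1:**
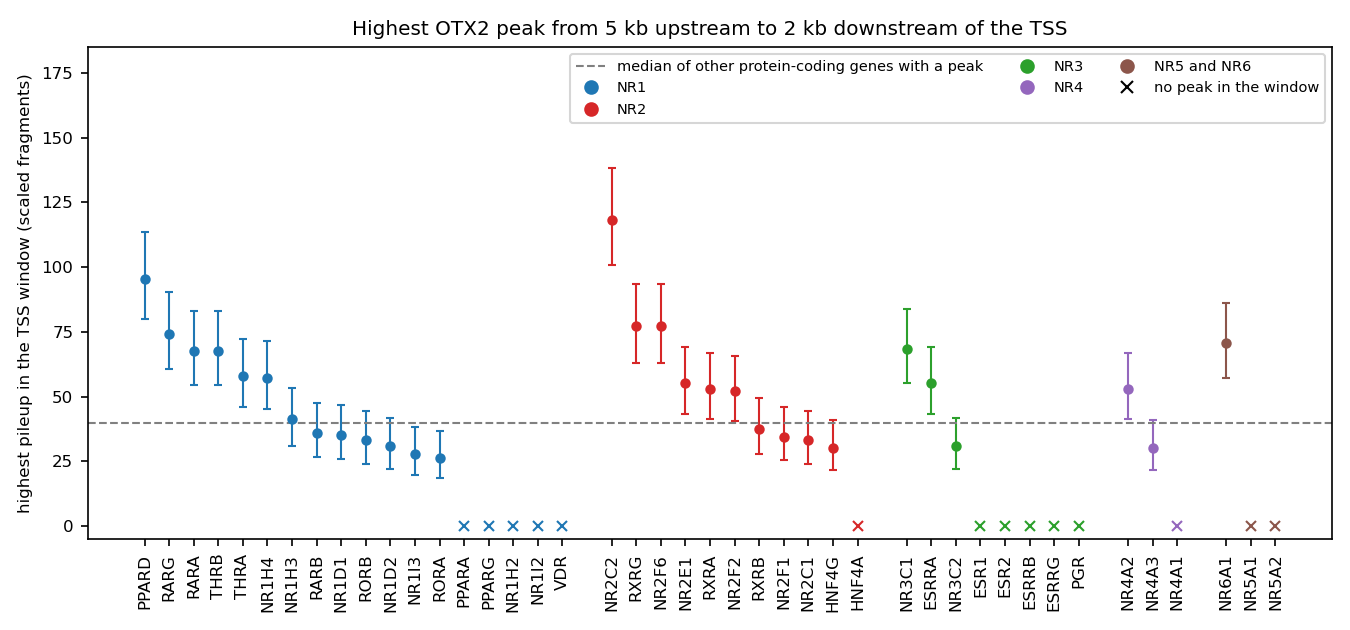
Highest OTX2 pileup in the TSS window of each of the 43 nuclear receptor genes (scaled fragments, linear axis), grouped by subfamily, with Poisson 95% intervals of the fragment number in the single ChIP library. Crosses mark the 14 genes with no peak in the window, and the dashed line is the median of other protein-coding genes with a peak (39.7); NR2C2 is highest at 118.38 and RORA lowest at 26.47.

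Among the larger subfamilies, NR2 and NR3 lay farthest apart in TSS share. In NR2, which holds the retinoid X receptors, HNF4 proteins, COUP transcription factors and TR2, TR4 and TLX, 10 of 11 genes (90.9%) had a TSS peak, with HNF4A the exception. In NR3, the steroid hormone receptors and the estrogen-related receptors, 3 of 8 (37.5%) had one. NR1 stood between them with 13 of 18 (72.2%), NR4 had 2 of 3, and NR5 and NR6 together 1 of 3. The NR3 count rested on which TSS was used. When the start of any annotated transcript was allowed, 6 of 8 NR3 genes had a peak, 10 of 11 NR2 genes, and 36 of 43 in all, beside 66.6% of protein-coding genes. Genes with more annotated transcripts have more windows under that rule. NR3 gene records were also longer, with a median of 222.5 kb against 44.4 kb for NR2. These counts cover few genes and their differences were not tested.

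Among the hormone and lipid receptors of NR1, the highest TSS pileups lay at PPARD, RARG, RARA, THRB, THRA and NR1H4, in that order with RARA and THRB level. PPARD, a fatty acid sensor, had a single peak (chr6:35342278-35342823) with its summit 35 bp past the TSS in an exon. It rose to a pileup of 95.59, or 130 fragments (109 to 154), with a 19.4-fold enrichment and a −log10 q of 91.0, which put its fold enrichment at percentile 92.7 of all peaks. The other peroxisome proliferator-activated receptors, PPARA and PPARG, had no peak in the window. All 3 retinoic acid receptors had one. At RARG the summit lay 2565 bp upstream (chr12:53235340-53236144, pileup 74.26, 101 fragments (82.3 to 123), fold 15.1, −log10 q 63.3). At RARA it lay 1989 bp downstream in an intron (chr17:40311005-40311402, pileup 67.65, 92 fragments (74.2 to 113), fold 10.4, −log10 q 45.2). RARB had 4 lower peaks, the highest at 36.03. The retinoic acid receptors thus carried their strongest window peak upstream at RARG and RARB and inside the gene at RARA.

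Both thyroid hormone receptor genes had a peak in the window, with similar pileups and different enrichment. The THRB peak (chr3:24493768-24495147) had its summit 952 bp inside the gene, with a pileup of 67.65 from 92 fragments (74.2 to 113), 13.2-fold enrichment and a −log10 q of 53.1. The THRA peak (chr17:40054224-40054600) lay 3856 bp upstream, with a pileup of 58.09 from 79 fragments (62.5 to 98.5). It was enriched 3.48-fold (−log10 q 13.8) over a local input of 16.0, where the lowest local input of any peak was 3.98. The intervals of the fragment numbers overlapped, so the order of the pair is not resolved by fragment number, and the difference was not tested. NR1H4, the bile acid receptor FXR, had an exonic peak 124 bp past the TSS (chr12:100473619-100474049, pileup 57.35, 78 fragments (61.7 to 97.3), fold 10.7, −log10 q 40.2).

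The remaining NR1 genes had lower TSS peaks or none. NR1D1 and NR1D2, which encode the heme-binding clock repressors REV-ERB alpha and beta, each had 2 peaks with highest pileups of 35.29 and 30.88. RORB and RORA, which activate transcription through the elements that the REV-ERBs repress, had 1 each at 33.09 and 26.47, the latter the lowest of all 29 genes. The oxysterol receptor gene NR1H3 had 1 at 41.18 and the xenobiotic receptor gene NR1I3 1 at 27.94. The window peaks of NR1D2 and NR1H3 lay closer to the start of a neighbouring gene, NKIRAS1 and ACP2, so they cannot be assigned to the receptor genes alone. NR1H2, NR1I2 and VDR had no peak in the window.

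In NR2 the tallest window peak was that of NR2C2, which encodes the orphan receptor TR4. The summit lay 5216 bp upstream and the peak (chr3:14941961-14942757) reached into the window only at its edge. Its pileup was 118.38, or 161 fragments (137 to 188), enriched 9.95-fold over a local input of 11, and a −log10 q of 74.7. A further NR2C2 peak, 688 bp inside the gene, reached 26.47. NR2F6, an orphan COUP relative, had 1 peak 2760 bp upstream (chr19:17248427-17248870, pileup 77.2, 105 fragments (85.9 to 127), fold 9.78, −log10 q 49.5). NR2E1, or TLX, a regulator of neural stem cells, had its highest 884 bp upstream (chr6:108164946-108165357, pileup 55.15, 75 fragments (59.0 to 94.0), fold 8.02, −log10 q 31.4), nearer to the start of OSTM1 than to its own.

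All 3 retinoid X receptors, the shared heterodimer partners of the family, had a window peak. RXRG was highest, with an exonic peak 311 bp past the TSS (chr1:165444892-165445302). The pileup was 77.2, equal to that of NR2F6 at 105 fragments (85.9 to 127), enriched 6.65-fold (−log10 q 36.7) over a local input of 10.8. RXRA had 1 peak at 52.94 and RXRB had 2, the higher at 37.5. Pileup and fold enrichment ranked these genes differently: NR2C2, RXRG and NR6A1 were 3 of the 9 genes whose strongest window peak stood on a local input of 8 or more.

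Of the other subfamilies, 3 genes ranked among the highest window peaks or tied for the last of those places. NR3C1, the glucocorticoid receptor, had an intronic peak 1918 bp past the TSS (chr5:143433438-143433788, pileup 68.38, 93 fragments (75.1 to 114), fold 8.65, −log10 q 40.3). ESRRA, an orphan regulator of mitochondrial metabolism, had its highest 4351 bp upstream (chr11:64300922-64301347, pileup 55.15, 75 fragments (59.0 to 94.0), fold 11.3, −log10 q 40.4), nearer to the start of CATSPERZ. NR6A1, the germ cell nuclear factor, had a peak 294 bp upstream (chr9:124771206-124772423, pileup 70.59, 96 fragments (77.8 to 117), fold 4.77, −log10 q 24.2) over a local input of 14.0. NR4A2, or NURR1, a factor of dopaminergic neurons, followed at 52.94, ahead of NR3C2 (30.88) and NR4A3 (30.15). The intervals of NR6A1, NR3C1, THRB, RARA, THRA, NR1H4, NR2E1 and ESRRA overlapped one another, so their order is not resolved by fragment number.

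**Figure D2:**
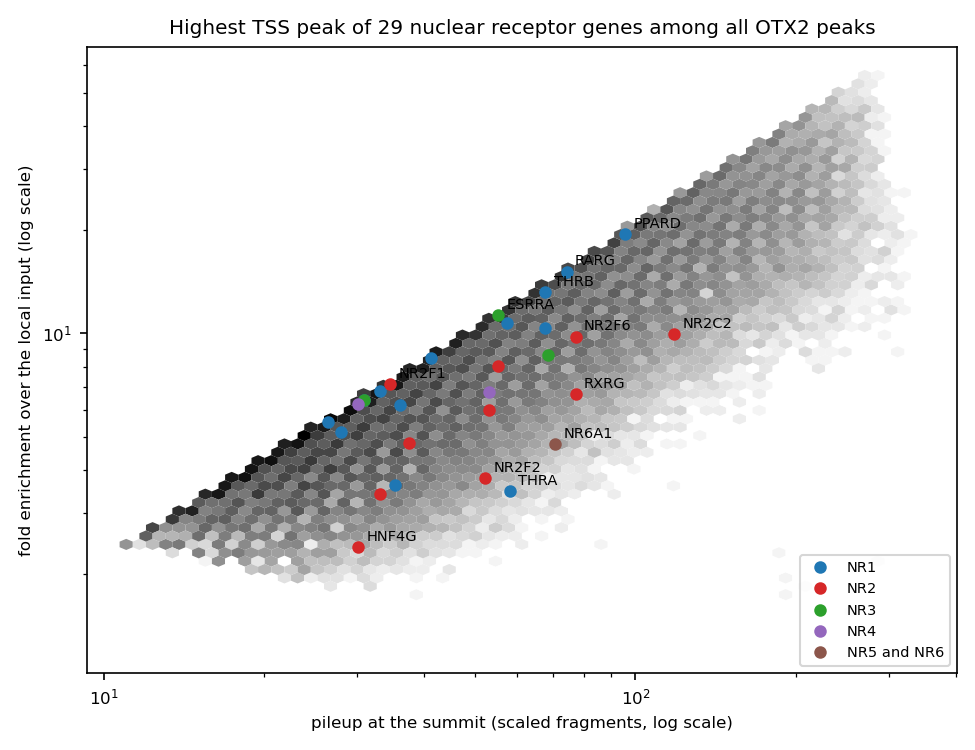
Pileup (horizontal, log axis) against fold enrichment over the local input (vertical, log axis) for the highest TSS-window peak of 29 nuclear receptor genes (coloured points), over the density of all 137412 peaks in grey. Points on the upper edge, such as PPARD, RARG and ESRRA, have the lowest local input, and THRA, NR2F2, NR6A1 and HNF4G lie below it with a local input of 12 to 16.

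The strongest window peak had its summit upstream of the TSS in 17 of the 29 genes and downstream in 12, and within 1 kb in 12. Counting any peak, 21 of 43 receptor genes had one within 1 kb of the TSS, beside 46.9% of protein-coding genes, so the excess over other genes was 10.3 percentage points in the wide window and 1.92 in the narrow one. Among peaks enriched at least 5-fold, the count was 24 of 43, beside 38.5%. The fold enrichment of the strongest peaks ran from 2.40 at HNF4G to 19.4 at PPARD, with a median of 6.65.

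The sequence under the promoter peaks could be read for receptor genes with a RefSeq promoter, the 300 bases from 250 before to 50 after an annotated start (GRCh38.p14). These were at hand for 39 of the 43 genes, HNF4G, NR2F6, NR4A2 and VDR being the others, as 94 windows that in part overlap within a gene. A peak overlapped at least 1 window of 22 of 39 genes (56.4%), beside 43.5% of 15842 protein-coding genes. Receptor genes have more windows per gene, and counted by window the order was the reverse, with a peak over 31 of 94 (33.0%), beside 37.8% of all windows. OTX2 and related homeodomain proteins are known to bind TAATCC and the related TAATCT. Either motif, on either strand, was present in 14 of the receptor windows (14.9%) and in 10.6% of all 22198 promoter windows. Among windows with a peak the share was 7 of 31 (22.6%), beside 12.1% for all genes, and among those without a peak 7 of 63 (11.1%), beside 9.69%. These are small counts, and a match is a description of the letters and not a shown binding site.

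In 5 of the 7 receptor genes with a peak and a match in the same window, the match lay within 20 bp of the summit (71.4%), beside 48.2% of the 934 protein-coding genes with both. The distance of 20 bp was chosen after the values were seen. The 5 sites are shown because they place the OTX2-type motif directly at the point of highest coverage. Each is 30 bases, read 5′ to 3′ on the strand of the gene from RefSeq GRCh38.p14. Capitals mark the match, which reads GGATTA where TAATCC is on the opposite strand.
PPARD, chr6:35342578-35342607, plus strand: gccgccgcggacctggGGATTAatgggaaa
NR3C2, chr4:148444649-148444678, minus strand: cagggcgactgccactgccgGGATTAtcat
RORB, chr9:74615469-74615498, plus strand: tcctctttcattTAATCTcattaatgcagc
NR1H3, chr11:47248786-47248815, plus strand: ccatcaccgttgTAATCTatgcagcaaaca
THRB, chr3:24494801-24494830, minus strand: ccgtgacgcggcggGGATTAactttgcatg

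The match at PPARD lay 1 bp from the summit of the most enriched window peak of the family, described above. At NR3C2, the mineralocorticoid receptor, it also lay 1 bp from the summit, of a lower peak with a pileup of 27.94 (38 fragments, fold 5.71). At THRB it lay 7 bp from the summit of the 67.65 peak, and at NR1H3 6 bp from that of the 41.18 peak. PPARD, NR3C2 and THRB held TAATCC, while RORB and NR1H3 held TAATCT. The remaining pair, ESR1 and RXRB, had TAATCT at 61 and 234 bp from the summit.

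At RORB, a receptor of the retina and cortex, the site belonged to the second RefSeq start, inside the gene. There a peak of pileup 48.53 (66 fragments, fold 8.25) had its summit 45 bp upstream of the start, with the match 3 bp from it. At the first start a peak of 33.09 (45 fragments, fold 6.82) had its summit 15 bp upstream, with no match in the window. The 250 bases before the second start, chr9:74615284-74615533 on the plus strand, are shown with the match in capitals, since this start had the taller of the pair of RORB promoter peaks and a low G+C content (40.7% of the 300 bases, beside a median of 62.0% over receptor windows with a peak).
RORB, second start, 250 bases upstream: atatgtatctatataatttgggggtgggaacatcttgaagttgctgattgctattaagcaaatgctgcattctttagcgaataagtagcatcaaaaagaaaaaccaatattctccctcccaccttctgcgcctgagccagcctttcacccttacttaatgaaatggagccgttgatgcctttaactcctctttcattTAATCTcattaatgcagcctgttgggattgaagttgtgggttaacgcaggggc

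NR2F1 and NR2F2 encode COUP-TFI and COUP-TFII, orphan receptors that pattern the forebrain and other tissues. At both, the window peaks were modest and far taller peaks lay outside. NR2F1 (chr5:93583222-93594611, plus strand) had 3 peaks in the window. The highest lay 3325 bp upstream (chr5:93579790-93580421, pileup 34.56, 47 fragments (34.5 to 62.5), fold 7.13, −log10 q 18.4). The next lay 1722 bp upstream (chr5:93581089-93581594, pileup 19.12, 26 fragments (17.0 to 38.1), fold 4.03, −log10 q 6.10), and the lowest 588 bp downstream in an exon (chr5:93583672-93583970, pileup 17.65, 24 fragments (15.4 to 35.7), fold 3.73, −log10 q 4.75). All 3 stood below the median of other genes' highest window peaks, and 1 of them passed a fold enrichment of 5.

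The tallest peak near NR2F1 lay 9615 bp upstream of its TSS (chr5:93572605-93573988). It held 242 fragments (212 to 274) at a pileup of 177.94, enriched 35.8-fold with a −log10 q of 215. That is percentile 96.4 of all peaks by pileup and 99.4 by fold enrichment, and the interval lies clear of the 47 fragments of the highest window peak. In all, 10 peaks lay within 50 kb of the gene record. The 5 downstream ones included a pileup of 60.29 at 33855 bp past the TSS (fold 12.3) and of 72.06 at 38567 bp (fold 9.13). No other protein-coding TSS was nearer to any of the 10 summits.

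NR2F2 (chr15:96325938-96340263, plus strand) had 2 window peaks. One lay 141 bp upstream (chr15:96325628-96326205, pileup 30.15, 41 fragments (29.4 to 55.6), fold 5.95, −log10 q 14.1). The other lay 1472 bp downstream in an intron (chr15:96326618-96327712, pileup 52.2, 71 fragments (55.5 to 89.6), fold 3.80, −log10 q 14.0) over a local input of 13.0, so the taller of the pair had the lower enrichment. Within 50 kb there were 23 peaks, all nearer to NR2F2 than to any other protein-coding TSS. This was 20.1 peaks per 100 kb, percentile 99.7 of all protein-coding genes and the highest density in the family. The tallest stood upstream as neighbours, at 16503 bp (pileup 130.88, 178 fragments (153 to 206), fold 23.9, −log10 q 135) and 17700 bp (pileup 98.53, 134 fragments (112 to 159), fold 12.4, −log10 q 72.5). NR2F6, the third COUP gene, had 6 peaks within 50 kb, or 5.26 per 100 kb, near the median of other genes (5.12).

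**Figure D3:**
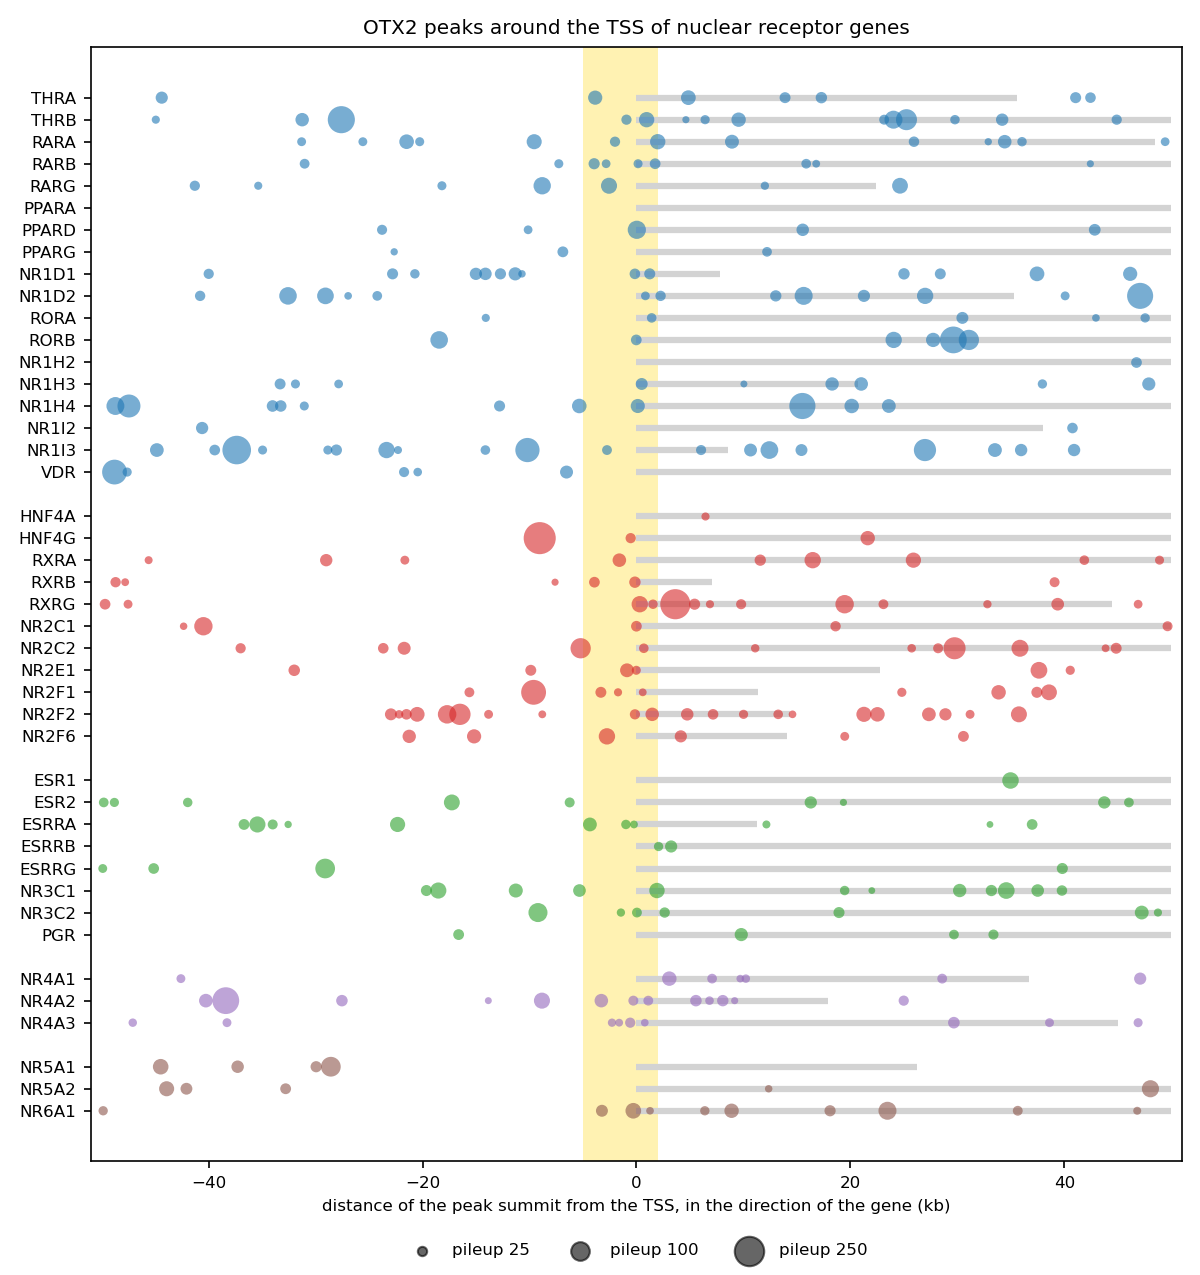
OTX2 peaks within 50 kb of the TSS of the 43 nuclear receptor genes, 1 row a gene and coloured by subfamily; the horizontal axis is the distance of the summit from the TSS in kb, in the direction of the gene, and circle size follows pileup. Grey bars are gene records and the yellow band is the TSS window; the largest circles, such as HNF4G 9.04 kb upstream, NR2F1 9.62 kb upstream and RXRG 3.63 kb downstream, lie outside the band.

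In the 14 genes without a window peak the nearest peak lay between 2.02 and 67.2 kb from the TSS. ESRRB and NR4A1 came closest, with a peak edge 2.02 and 2.71 kb downstream, and the NR4A1 peak was tall for the family (pileup 60.29, fold 10.2). NR4A1, or NUR77, is an immediate early gene. The edge lay at 6.14 kb for ESR2 (upstream), 6.25 kb for HNF4A (downstream), 6.39 kb for VDR (upstream) and 6.60 kb for PPARG (upstream). It lay 9.48 kb downstream for PGR, the progesterone receptor, and 12.1 kb downstream for NR5A2. For NR5A1 and ESRRG it was 28.0 and 28.6 kb upstream, with tall peaks (112.5 and 111.76). For ESR1, the estrogen receptor alpha gene, it lay 34.6 kb downstream (78.67). The farthest were NR1I2 (40.4 kb upstream), NR1H2 (46.5 kb downstream) and PPARA (67.2 kb upstream). The NR1H2 peak had its summit 125 bp upstream of the start of the canonical transcript, which lies 46.8 kb inside the gene record (pileup 33.09, fold 5.68). Lack of a window peak thus covered everything from a peak just past the edge to no peak closer than 67.2 kb.

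Other annotated starts brought 7 of these 14 genes a peak: PPARG, NR1H2, ESR1, ESR2, ESRRG, NR4A1 and NR5A2. The tallest was at ESRRG, an orphan receptor of oxidative tissues, where a peak (chr1:216723031-216724187) had its summit 5 bp from a transcript start 414 kb inside the gene record. Its pileup was 150, from 204 fragments (177 to 234), with a fold enrichment of 16.8, taller than any peak in the 29 windows above. At ESR2 the summit of a peak lay 4 bp from the start of the canonical transcript (pileup 44.12, 60 fragments (45.8 to 77.2), fold 7.45), 43.7 kb inside the record. At NR4A1 a peak of 27.94 lay 12 bp from a start 28.6 kb into the gene. PPARA, NR1I2, VDR, HNF4A, ESRRB, PGR and NR5A1 had no peak in the window of any annotated start. Over all protein-coding genes, allowing any start raised the share with a peak from 57.2% to 66.6%. More annotated transcripts give a gene more windows. The genes that gained a peak had from 6 transcripts (NR5A2) to 34 (PPARG), and those that did not had from 4 (NR5A1) to 17 (HNF4A).

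Within 50 kb of the gene record all 43 genes had a peak, beside 94.1% of protein-coding genes, a share that leaves little room for a difference. The number varied more, from 2 at HNF4A to 67 at RARB, with a median of 14 beside 7 for other genes. RARB, RORA and ESRRG had the most, with 67, 66 and 56, and their records are 910, 741 and 635 kb long. The receptor genes are long in general, with a median record of 77.1 kb beside 27.6 kb, and a longer record collects more peaks. Per 100 kb of record and flanks the median was 7.35 peaks beside 5.12. Inside the records alone there were 7.46 per 100 kb, beside 5.87 over all protein-coding genes.

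By record length, the density was higher in each class. The TSS share stood above that of other genes in the shortest class, near it in the middle class and below it in the longest. Under 20 kb, all 8 receptor genes had a window peak, beside 49.3% of others, with a median of 10.5 peaks per 100 kb beside 4.80. From 20 to 100 kb, 11 of 17 (64.7%) had one, beside 62.3%, with 6.52 peaks per 100 kb beside 5.28. Over 100 kb, 10 of 18 (55.6%) had one, beside 63.8%, with 7.22 beside 5.46. The 8 short genes were NR2F1, NR2F2, NR2F6, RXRB, NR1D1, NR1I3, ESRRA and NR4A2. Density at the top of the family was reached by short genes too, with NR1I3 at 18.4 and NR1D1 at 13.0 after NR2F2, while PPARA and HNF4A had 1.55 and 1.13. Unlike at NR2F2, only 3 of the 20 NR1I3 peaks and 2 of the 14 NR1D1 peaks were nearest to the gene's own TSS. All 14 NR1D1 peaks also counted for THRA.

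**Figure D4:**
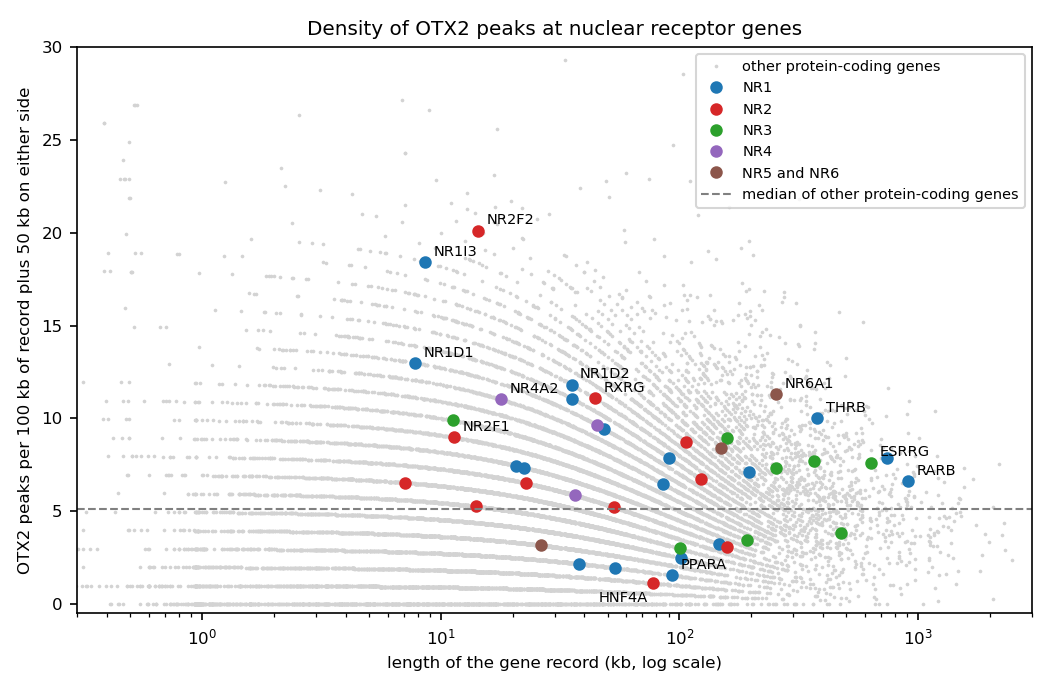
OTX2 peaks per 100 kb of gene record plus 50 kb on either side (vertical) against the length of the record (horizontal, log axis) for the 43 nuclear receptor genes, coloured by subfamily, over other protein-coding genes in grey. The dashed line is the median of the other genes (5.12); NR2F2 (20.1) and NR1I3 (18.4) stand highest and HNF4A (1.13) lowest.

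In 26 of the 29 genes with a window peak (89.7%) a taller peak lay outside the window within 50 kb, beside 84.8% of all protein-coding genes with a window peak, so this was common to genes in general. The exceptions were RARA, RXRB and NR2F6. HNF4G, related to the liver factor HNF4A, had the tallest, 9043 bp upstream (pileup 296.32, 403 fragments (365 to 444), fold 22.9, −log10 q 287) over a local input of 12. NR5A2, or LRH-1, a regulator of bile acid and steroid synthesis, had no window peak but an intronic peak 139283 bp past its TSS (chr1:200166470-200167379, pileup 284.55, 387 fragments (349 to 428), fold 31.7, −log10 q 318). The intervals of these fragment numbers overlapped. In RXRG a peak 3635 bp inside the gene reached 261.76 (chr1:165441368-165442528, 356 fragments (320 to 395), fold 26.3, −log10 q 271), against the 77.2 of its window peak.

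NR3C2 had its tallest peak in an intron 102100 bp past the TSS (chr4:148342234-148343211, pileup 245.58, 334 fragments (299 to 372), fold 30.8, −log10 q 273). RARB had one 593594 bp past its TSS, also intronic (chr3:25280890-25282311, pileup 244.85, 333 fragments (298 to 371), −log10 q 319). Its fold enrichment of 45.3 was at percentile 99.9 of all peaks, and the nearest gene start was that of TOP2B. Very tall peaks were listed for a larger share of receptor genes, mainly those with long records. A peak among the tallest 5% lay within 50 kb of 19 of 43 genes (44.2%), beside 23.9% of all genes. For records over 100 kb the counts were 12 of 18 (66.7%) beside 46.3%, and for shorter ones 7 of 25 (28%) beside 18.9%. Among the tallest 1% (pileup above 229.41) it was 9 of 43 (20.9%), beside 6.31%, with 7 of 18 (38.9%) beside 14.2% for the longer records and 2 of 25 (8%) beside 4.53% for the shorter. In the shorter records both counts are within a few genes of the background.

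Taken over all 741 peaks near the family, the peaks themselves were ordinary. Their median pileup was 37.5 (51 fragments) and their median fold enrichment 5.95, beside 38.97 (53 fragments) and 6.10 over all peaks. Introns held 58.4% of the summits, with 20.4% upstream, 18.3% downstream and 2.90% in exons, and 54 peaks overlapped a TSS window. The intron share was 70.5% for NR3, with its long records, and 33.9% for NR2. A receptor TSS was the nearest protein-coding start for 60.2% of the peaks. Neighbouring receptor genes shared some of them: 14 peaks counted for both THRA and NR1D1, which overlap on chromosome 17, and 4 for both NR5A1 and NR6A1 on chromosome 9.

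Of genes that act with the receptors, 13 of 16 coactivators and corepressors (81.25%) had a window peak. The share was 67.4% in the family and 57.2% over all protein-coding genes. Of these 16 genes, 25% had 2 or more, a lower share than in the family and near the 23.5% of all genes. The median highest pileup was 38.23, near the 39.7 of all genes with a window peak. PPARGC1A, the metabolic coactivator PGC-1 alpha, was highest, 1573 bp upstream of its TSS (pileup 127.94, 174 fragments, fold 18.8). NCOA3, a steroid receptor coactivator, followed at 80.88 (110 fragments, fold 14.1), and the corepressor gene NRIP1 at 77.2 (105 fragments, fold 14.1) was level in pileup with the Mediator subunit gene MED1 (fold 8.73). Of 17 genes for the synthesis, transport and breakdown of retinoic acid and thyroid hormone, 10 (58.8%) had a window peak, near the share of all genes, but with a median highest pileup of 67.6. RDH10, which makes retinaldehyde, reached 261.76 (356 fragments, fold 20.2). The retinoic acid-degrading enzyme gene CYP26C1 reached 186.02 (253 fragments, fold 12.5), and CRABP2, a retinoic acid carrier, 134.55 (183 fragments, fold 13.6). Each of these 3 peaks was taller than the strongest window peak of any receptor gene, and each stood on a raised local input of 12, 14 and 9.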

How the data were processed

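OTX2 ChIP-Seq of D283 tumorspheres (1 ChIP library, 1 input library) was analysed from the deposited peak list. The authors aligned reads with Bowtie2 2.2.4 to GRCh38. Their narrow peaks came from MACS2 2.1.0.20140616 on paired fragments, at a q-value cutoff of 0.05 and with 1 fragment kept per position. As deposited, pileup is scaled signal (fragment coverage at the summit), fold enrichment is a ratio to local input, and q is given as −log10. The input was the shallower library (depth ratio 2.72), which limits the precision of fold enrichment. Fragments were pileup divided by 0.735, whole within 0.02 for 100% of peaks. The study describes blacklist masking, which was not traced here.

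Gene records came from GENCODE release 44 by their recorded GRCh38 positions, with no coordinate converted, and promoter sequences from RefSeq GRCh38.p14. A peak counted with at least 1 bp in a window. Genes share 1 peak list and are not replicates, so counts were set beside all 19881 genes without a test. Scripts used matplotlib 3.10.9, scipy 1.17.1, numpy 2.4.6 and pandas 2.3.3 under Python 3.11.15, and counting was tested on simulated peaks. Full values are given for NR2F1, NR2F2, the 12 highest window peaks (13 with a tie) and the 5 highest outside the window, and the 3 highest of each related list are named. Members, lists and rules were chosen with earlier results of these data known.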

Additional observations from a re-analysis of the deposited data

How the results depend on the processing

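Of 89 values recomputed under another setting, 65 were classed as the same as reported and 24 as moved, with no difference changing its sign. The first class was wide for the 43 receptor genes, and the recomputed values in the next sentence all fall in it. The receptor genes with a window peak numbered 21 (within 1 kb of the TSS) to 36 (any transcript start) around the reported 29, and the excess over other genes ran from 1.92 (within 1 kb) to 17.4 percentage points (fold of at least 5). The share of all genes with a window peak, 57.2% as reported, was 52.0% at a −log10 q of at least 5, 38.5% at a fold of at least 5, 56.3% where summits had to fall inside, 66.6% for any transcript start, 46.9% within 1 kb and 59.4% without chromosomes 7 and X, which hold no listed receptor gene. Of settings chosen after seeing the data, it was 58.5% for the canonical transcript and 50.5% for peaks nearest to their own gene's TSS; RefSeq records gave 57.8%. The share within 50 kb, 94.1%, was 93.0% and 89.7% at those q and fold limits, 83.1% within 10 kb, 97.3% within 100 kb, 94.9% without chromosomes 7 and X and 77.7% for nearest peaks. Its excess of 5.92 points fell to 2.69 (100 kb) and 5.16 (without chromosomes 7 and X) and rose to 7.03 and 10.3 (q and fold limits), 14.7 (10 kb) and 13.0 (nearest peaks). Within 1 kb the median highest pileup was 33.1 instead of 52.9, NR1 had 8 genes instead of 13 and NR2F1 1 peak instead of 3, also 1 at a fold of at least 5. Any transcript start gave NR3 6 instead of 3 and NR5 with NR6 2 instead of 1. Counts of genes and peaks can only fall in the narrower window, which lies inside the wide one. The cause of the other changes was not tested.

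No paired analysis was possible because each kind of library was made once. With no replicate ChIP, the spread of any pileup between samples is unknown, and intervals cover counting error only. Peaks below the calling limit are not listed, so a gene without a peak is one where none was detectable at this depth. Assignment by distance does not show which gene a peak acts on.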
